A study of Mus musculus with 4 samples.

Results

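The cells described here are the CD4+ T cells of cluster 3, the largest CD4+ T cell cluster in mouse peripheral blood mononuclear cells. They were chosen from the deposited cell table by the authors' annotation and cluster number. They comprise 784 of the 1517 CD4+ T cells and of the 5794 cells in all. The other CD4+ T cells fell into clusters 5, 7 and 8, with 444, 152 and 137 cells. All 4 mice were female wild-type C57BL/6 mice of 3.2 ± 0.3 months under ketamine and xylazine anaesthesia. The treated mice, Maus3_2 and Maus6, received non-thermal plasma (NTP), a partly ionized gas from an argon jet, on the left ear for 10 min. The untreated mice, Maus2_2 and Maus4_2, were anaesthetized and received no NTP. Blood was taken 120 min after NTP in treated mice and 120 min after anaesthesia began in untreated mice, so time under anaesthesia differed between the groups and cannot be told apart from treatment. The study asked whether treating skin alters gene expression in blood cells.

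CD4+ T cells recognize peptides on MHC class II molecules through the T cell receptor, with CD4 as coreceptor. Before they meet antigen, naive CD4+ T cells circulate between blood and lymph nodes, guided among others by the chemokine receptor CCR7 and the sphingosine 1-phosphate receptor S1PR1. They are held in a resting state by factors such as TCF7, LEF1 and KLF2. Regulatory T cells are a separate CD4+ lineage, defined by FOXP3 and by high levels of the IL-2 receptor alpha chain.

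The treated mice Maus3_2 and Maus6 gave 216 and 224 cells of cluster 3, and the untreated mice Maus2_2 and Maus4_2 gave 121 and 223. A unique molecular identifier (UMI) marks each captured RNA molecule, and the cells gave 1078334 and 940877 UMIs for treated, against 582844 and 742867 UMIs for untreated mice. Median UMIs per cell were 4912 and 4114.5 in treated mice and 4747 and 3234 in untreated mice, so the groups overlapped. Maus4_2 was the shallowest. The 4 libraries shared 4 cell barcodes, which touched 1 cell of cluster 3.

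Nearly all cells carried T cell markers, while Cd4, whose detection is set here against B cells and not CD8+ T cells, was found in fewer. Of the 784 cells, 783 had a UMI of Cd3d, Cd3e, Cd3g or Trac, which encode the CD3 chains and the T cell receptor alpha constant region. Cd4 had a UMI in 42.0% of cluster 3 cells (95% Wilson interval 38.6 to 45.4%), against 0.160% of B cells, at median depths of 4123.5 and 3364 UMIs. This and all other intervals cover counting error only. The Cd4 level was 144 and 138 CPM (counts scaled to a common UMI total per library) in treated and 141 and 151 CPM in untreated mice. Cluster means of Cd4 lay between 113 and 159 CPM, and no direction between clusters 3 and 5 was kept when a mouse was left out.

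In cluster 3, markers of naive T cells were common and the defining markers of cluster 8 were rare. Lef1, a transcription factor of naive T cells, had a UMI in 96.8% of cluster 3 cells and in 5.62% of B cells. Foxp3 had a UMI in 6 cells (0.765%, 0.351 to 1.66%), against 48 of 137 cluster 8 cells and 0.160% of B cells. At least 2 of Foxp3, Il2ra, Ikzf2 and Ctla4 were found in 5 cluster 3 cells (0.638%), 11 cluster 5 cells (2.48%), 1 cluster 7 cell (0.658%) and 96 of 137 cluster 8 cells (70.1%). Any 1 of these genes was found in 131 cluster 3 cells (16.7%). Izumo1r, the folate receptor 4 gene also high in regulatory T cells, lay above cluster 5 in all 4 mice, by 0.33 to 0.74. At least 2 of S100a4, S100a6, Cxcr3 and Maf, genes raised in antigen-experienced T cells, were found in 0 of 784 cells. That allows a share of up to 0.383% of cells with UMIs of such a pair, and sets no limit on cells that express them. Of the 10 measured genes of the memory and effector list, 5 were higher and 2 lower than in cluster 5 in every mouse, with a median of 0.21. Over all genes, 8.24% were higher and 44.6% lower than in cluster 5 in every mouse, with a median of −0.29. Cd8a and Cd8b1, the CD8 coreceptor chains, were never found together, in 0 of 784 cells (up to 0.383% with such UMIs). Cd8a or Cd8b1 was found in 40 cluster 3 cells (5.10%). Both together were also absent from the 444 cluster 5 and 137 cluster 8 cells, while 19 of 152 cluster 7 cells had both. These marker combinations were chosen after the data were seen.

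A cluster is built from the same counts that are compared here, so the differences between clusters are descriptions and carry no test. They were taken within each mouse as log2 differences of CPM + 10, for genes with a mean of at least 20 CPM on either side. The median gene lay 0.24 below the sum of clusters 5, 7 and 8 (log2 difference −0.24) and 0.29 below cluster 5 (−0.29), and every difference below is to be read against this shift. Against the sum, 387 of 5734 genes (6.75%) were higher in all 4 mice and 2436 (42.5%) lower. Against cluster 5, 479 of 5813 genes (8.24%) were higher and 2594 (44.6%) lower. With ribosomal protein genes left out of the totals, the shift to cluster 5 was −0.11, and 978 genes were higher and 1768 lower.

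Igfbp4, which encodes an insulin-like growth factor binding protein and is a known transcript of naive CD4+ T cells, led the genes higher in cluster 3 by the smallest difference over mice to clusters 5, 7 and 8. It measured 393, 398, 410 and 353 CPM in cluster 3 of Maus3_2, Maus6, Maus2_2 and Maus4_2, against 259, 224, 257 and 270 CPM in cluster 5. Each cluster 3 value lay above every value of the other clusters. Means were 388 ± 24.8 CPM in cluster 3, 252 ± 19.8 CPM in cluster 5, 159 ± 44.6 CPM in cluster 7 and 31.1 ± 16.2 CPM in cluster 8 (SD, n = 4 mice). The log2 difference to cluster 5 was 0.60 on average and between 0.38 and 0.80 in single mice. Igfbp4 had a UMI in 56.5% of cluster 3 cells and in 0.319% of B cells.

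Dapl1, known for its expression in resting T cells, measured 377, 476, 398 and 423 CPM in cluster 3, against 146, 290, 271 and 286 CPM in cluster 5. Cluster 7 overlapped with cluster 3, at 198 to 462 CPM. Igfbp4 and Dapl1 were found together in 256 cluster 3 cells (32.7%), 102 of 444 cluster 5 cells, 33 of 152 cluster 7 cells (21.7%) and 3 of 137 cluster 8 cells (2.19%). Pdlim4, a PDZ and LIM domain protein, averaged 46.1 ± 8.93 CPM in cluster 3, 28.8 ± 12.2 in cluster 5, 26.6 ± 14.3 in cluster 7 and 7.59 ± 8.90 in cluster 8. The remaining leading genes included the ribosomal protein genes Rpl3, Rpl14, Rplp0 and Rpsa, and Npm1, a nucleolar chaperone of ribosome assembly.

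The transcription factors of naive cells were not highest in cluster 3. Lef1 measured 1296, 1161, 1280 and 1244 CPM in cluster 3, against 1801, 1768, 1954 and 1948 CPM in cluster 5, with no overlap. The log2 difference was −0.58, beyond the −0.29 of the median gene. Tcf7 differed from cluster 5 by −0.33, close to that shift, while Ccr7 differed by 0.07. Cd28, the costimulatory receptor, differed by −0.61 and was lower than in cluster 5 in all 4 mice. Of the 15 measured genes of the naive list, 2 were higher and 9 lower than in cluster 5 in every mouse. Over all genes the shares were 8.24% and 44.6%. The list median of −0.25 was close to the −0.29 of the median gene.

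**Figure D1:**
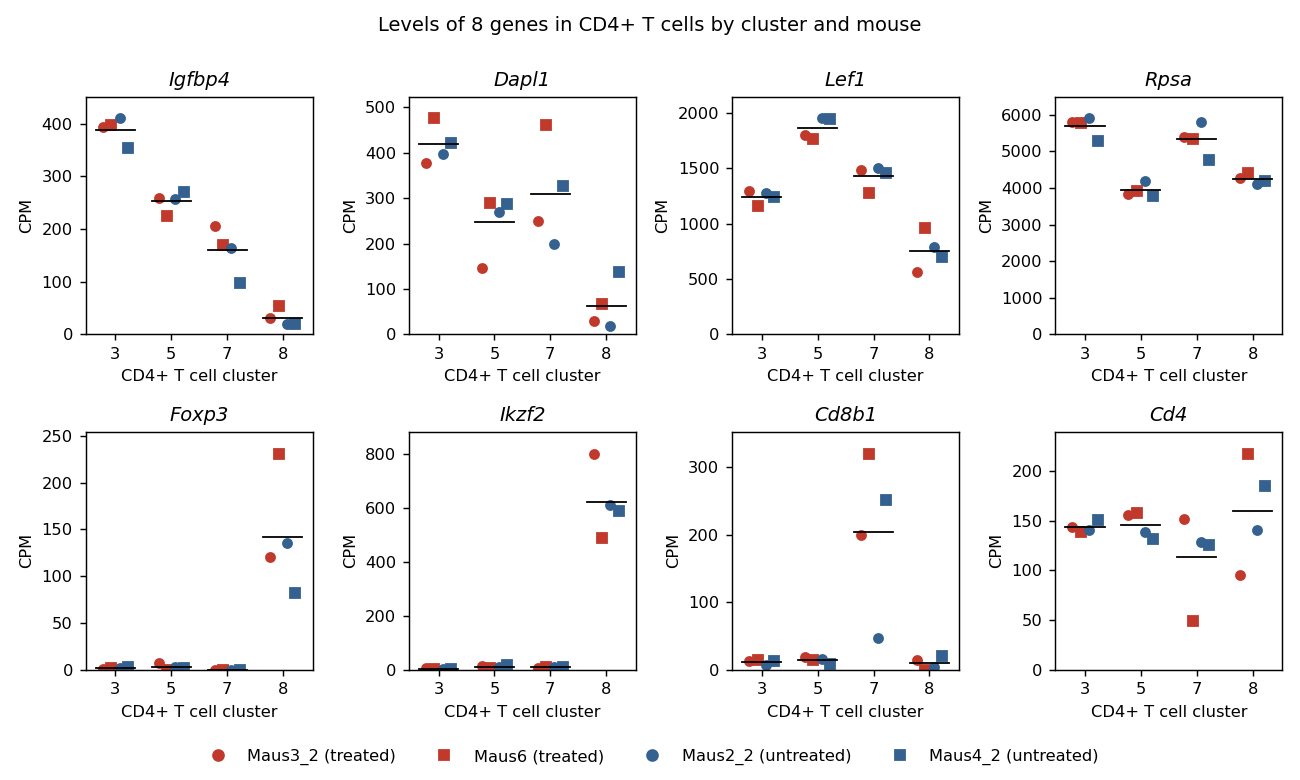
CPM of 8 genes in CD4+ T cells of clusters 3, 5, 7 and 8, each point 1 mouse (red treated, blue untreated) and each bar the mean of 4 mice, on linear axes from 0. Igfbp4 in cluster 3 lay between 353 and 410 CPM, above all other clusters, Lef1 was higher in cluster 5, and Foxp3 and Ikzf2 were near 0 outside cluster 8.

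The genes lowest in cluster 3 relative to clusters 5, 7 and 8 were mostly genes of cluster 8. Ikzf2, which encodes the regulatory T cell factor Helios, measured 7.42, 2.13, 1.72 and 2.69 CPM in cluster 3, against 799, 489, 611 and 587 CPM in cluster 8. Ctla4, the inhibitory receptor, averaged 41.7 CPM in cluster 3 and 801 CPM in cluster 8. Il2ra averaged 2.27 CPM in cluster 3 and 151 CPM in cluster 8. Gm11290 was instead a gene of cluster 7, at 46.3 CPM in cluster 3, against 2027 CPM in cluster 7. A difference of at least 1 log2 unit in every mouse was reached by 10 lower genes (19 without Maus6) and 0 higher genes.

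Within each mouse, cluster 3 had a higher share of ribosomal protein RNA than the other CD4+ clusters. Ribosomal proteins form both subunits of the ribosome, and their mRNAs are abundant in resting lymphocytes. They took a median of 37.4, 38.0, 37.6 and 36.3% of the UMIs per cluster 3 cell in Maus3_2, Maus6, Maus2_2 and Maus4_2. In cluster 5 the medians were 27.7, 28.3, 29.1 and 28.5%, so the medians per mouse did not overlap. Single cells did overlap, at 22.8 to 72.5% in cluster 3 and 0.31 to 39.6% in cluster 5. Over all cells the medians were 37.3% in cluster 3, 28.4% in cluster 5, 35.7% in cluster 7 and 27.5% in cluster 8.

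The increase was shared by nearly the whole family. Of 81 ribosomal protein genes measured, 80 were higher than in cluster 5 in all 4 mice, against 8.24% of all genes, and the median log2 difference was 0.43. Against clusters 5, 7 and 8 together, 79 of 81 were higher, against 6.75% of all genes. Rpsa, a protein of the small subunit, measured 5807, 5781, 5906 and 5290 CPM in cluster 3, against 3849, 3912, 4200 and 3792 CPM in cluster 5. Rplp0, of the ribosomal stalk, averaged 5118 ± 355 CPM in cluster 3 and 3580 ± 236 CPM in cluster 5. With ribosomal genes left out of the totals the count was again 80. That scaling raises cluster 3 relative to cluster 5, so it could not have lowered the count. The ribosomal list was chosen after the data were seen.

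Many ribosomal protein mRNAs start with a run of pyrimidines, the 5′ terminal oligopyrimidine tract, through which their translation is controlled. A run of at least 8 C or T within 10 bases before to 15 bases after the RefSeq start, on the sense strand of GRCm38.p6, was found for 23 of the 61 ribosomal genes with a promoter entry (37.7%). Among all 27025 genes with an entry, 2986 had such a run. Among the leading genes higher in cluster 3 it was 1 of 9 with an entry, and among the lower ones 1 of 10. Of the ribosomal genes with an entry, Rpsa, Rps19, Rplp0 and Rpl36a had the largest differences to cluster 5, and none of these 4 had a run by this rule. The annotation used for gene length starts Rpsa at chr9:120127689, before the bases searched. A missing run here is therefore not evidence of a missing tract. This search was made with 1 setting, chosen after the ribosomal pattern was seen.

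Cluster 3 cells also contained fewer genes. Median genes per cell were 1410.5 in cluster 3, 1873 in cluster 5, 1528.5 in cluster 7 and 1733 in cluster 8. After thinning every cell to 2000 UMIs, which left out 10 cluster 3 and 3 cluster 5 cells, the medians were 861, 996, 892 and 976. The gap was present in each mouse, at 858, 855, 862.5 and 873 genes in cluster 3, against 1007, 1001, 983 and 994 in cluster 5. The study's filter capped the genes per cell, and the highest cell had 2402 genes in cluster 3 and 2499 in cluster 5. The part of this cap in the difference was not tested.

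**Figure D2:**
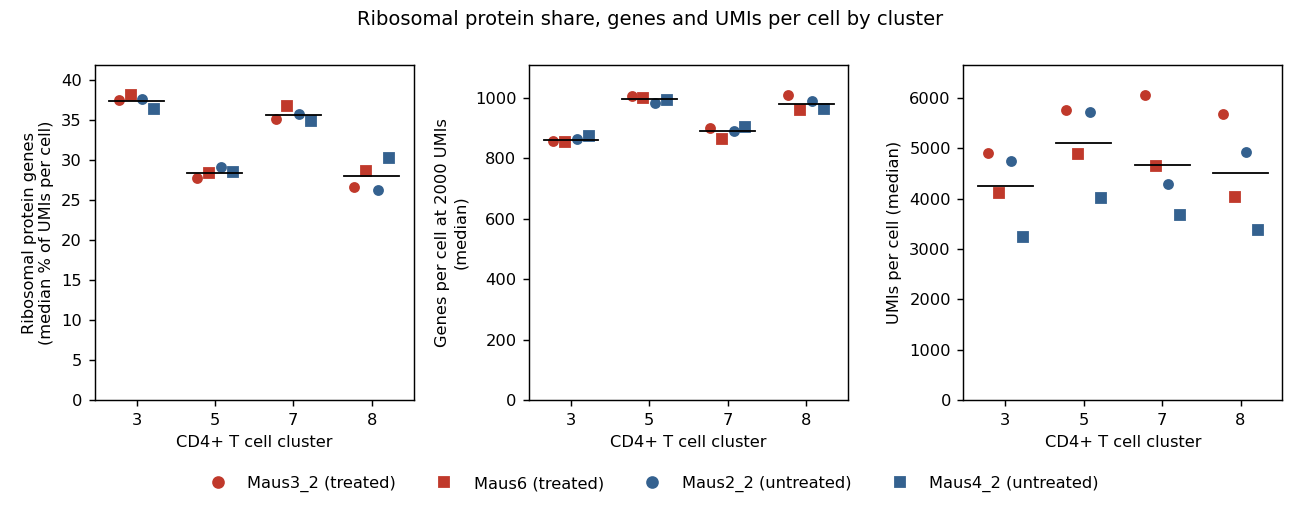
Median percent of UMIs from ribosomal protein genes, median genes per cell after thinning to 2000 UMIs and median UMIs per cell, by CD4+ T cell cluster, with 1 point per mouse (red treated, blue untreated) and a bar at the mean of 4 mice. Cluster 3 had ribosomal medians of 36.3 to 38.0%, with cluster 7 just below it within each mouse and clusters 5 and 8 lower, and 855 to 873 genes at equal depth.

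Longer genes tended to be lower in cluster 3 than in cluster 5. Across 5782 genes with a length in the annotation, gene length and the log2 difference to cluster 5 had a Spearman correlation of −0.676. Within single mice it was −0.566 and −0.525 for treated and −0.508 and −0.481 for untreated mice. In 4 bins of nearly equal size by length, with medians of 6596, 21628, 45460 and 114816 bases, the median difference was 0.09, −0.21, −0.38 and −0.56. In the bin of longest genes 97.2% of genes were lower in cluster 3, against 38.9% in the shortest. Genes are not independent replicates, and the points share libraries and totals, so no p is given. The correlation was −0.664 without ribosomal protein genes and −0.590 at 2000 UMIs per cell.

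The relation was weaker against the other clusters, with a correlation of −0.243 against cluster 7 and −0.306 against cluster 8. Malat1, a nuclear RNA, took a median of 2.23% of UMIs per cell in cluster 3, 2.81% in cluster 5, 2.27% in cluster 7 and 2.78% in cluster 8. Mitochondrial RNA took 5.08, 4.19, 5.05 and 4.54% in the same order by the authors' values. Ribosomal share, Malat1, mitochondrial share and gene length thus moved together between clusters 3 and 5, and their part in the single gene differences was not tested.

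**Figure D3:**
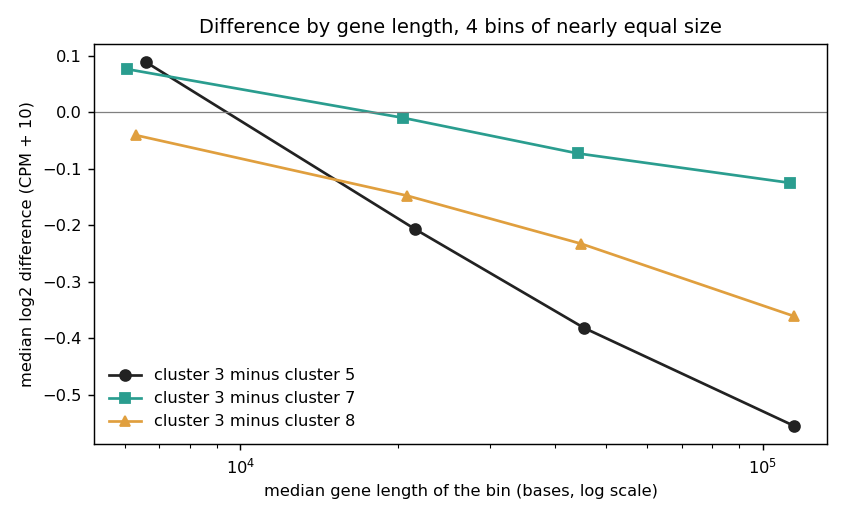
Median log2 difference of cluster 3 to clusters 5, 7 and 8 (mean of 4 mice, CPM + 10) in 4 bins of genes by length, against the median length of the bin in bases on a log axis. The line to cluster 5 falls to −0.56 in the bin of longest genes, and those to clusters 7 and 8 fall less.

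The share of cluster 3 among CD4+ T cells was larger in treated mice, without a test that could pass a threshold. It was 54.7% (49.8 to 59.5%) and 57.1% (52.2 to 61.9%) in treated mice, against 40.2% (34.8 to 45.8%) and 52.0% (47.3 to 56.7%) in untreated mice. The groups did not overlap, and the difference of means was 9.82 percentage points. The exact two-sided permutation test gave p = 0.333, the smallest value that 2 mice against 2 allow. Maus2_2 weighed on it, since the difference was 3.93 points without that mouse and 15.7 points without Maus4_2. Among all cells, cluster 3 took 14.2 and 13.1% in treated and 12.2 and 14.2% in untreated mice, with overlap (difference 0.47 points, exact permutation p = 1), and the sign turned without Maus3_2 (−0.05) or Maus2_2 (−0.53).

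**Figure D4:**
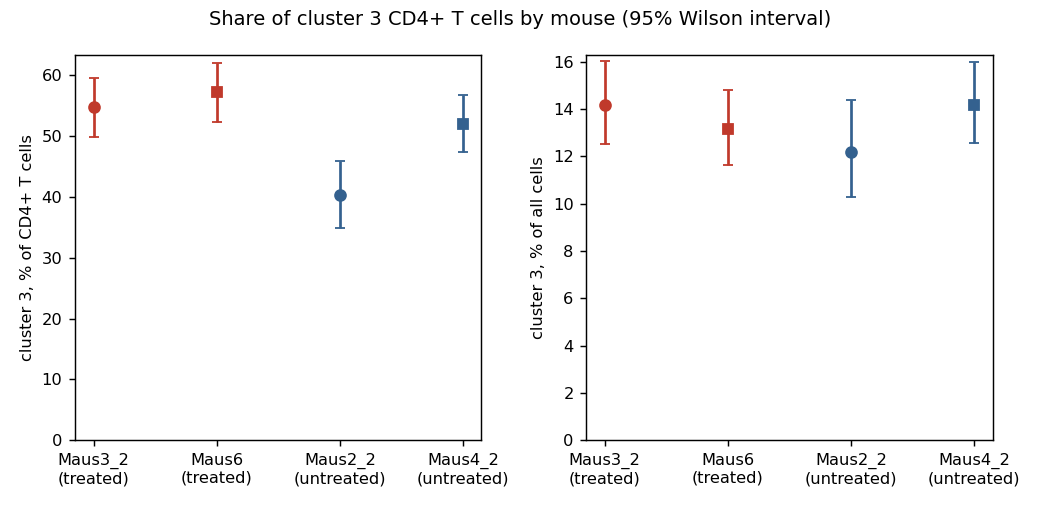
Share of cluster 3 CD4+ T cells among CD4+ T cells (left) and among all cells (right) in percent, 1 point per mouse with a 95% Wilson interval (red treated, blue untreated). Treated mice lie at 54.7 and 57.1% of CD4+ T cells, above 40.2 and 52.0% in untreated mice, while the shares of all cells overlap.

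To ask which genes of cluster 3 differed with treatment, UMIs were summed per mouse and 6906 genes were tested with edgeR. No gene passed the Benjamini-Hochberg adjusted threshold of 0.05 (0%). DESeq2 and limma-voom also called 0, with 33 and 325 genes at an unadjusted p under 0.05. With edgeR, at an unadjusted p under 0.05, 143 genes (2.07%) were higher and 186 (2.69%) lower in treated mice. Both treated mice lay above both untreated mice for 1117 genes (16.2%) and below them for 1174 (17%). Single libraries changed the count, with 11 genes called without Maus3_2, 0 without Maus6, 4 without Maus2_2 and 11 without Maus4_2. Gm10076 was high in Maus6 alone, at plain CPM of 126 in Maus3_2 and 399 in Maus6, against 139 and 129 in untreated mice. Its log2 fold change was 1.61 without Maus3_2, 1.06 without Maus2_2 and 0.90 without Maus4_2. In the fits that leave out a mouse, the lone mouse of a group is assumed to vary like the pair of the other group.

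The following levels of single genes are CPM on edgeR's TMM scale. Eif2b5, a subunit of the translation initiation factor eIF2B, measured 26.6 and 35.3 CPM in treated mice, against 8.84 and 8.06 CPM in untreated mice. Its log2 fold change was 1.85 ± 0.44 (SE), with an edgeR adjusted p of 0.644. Rpp21, a subunit of RNase P, measured 96.7 and 88.2 CPM in treated and 51.3 and 48.4 CPM in untreated mice (0.90 ± 0.22). The groups were apart for both genes, and neither passed the adjusted test.

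Tmem203, an endoplasmic reticulum membrane protein, measured 38.9 and 30.9 CPM in treated and 10.6 and 14.8 CPM in untreated mice. Olfr1369-ps1 measured 36.0 and 32.0 CPM in treated and 1.77 and 14.8 CPM in untreated mice. Gm11290, the gene that marked cluster 7, measured 73.0 and 54.0 CPM in treated and 37.1 and 25.5 CPM in untreated mice. All 3 separated the groups, at 1 to 77 UMIs per mouse.

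Gm42418, an RNA locus that overlaps ribosomal RNA sequence, was the most abundant of the lower genes. It measured 19074 and 16206 CPM in treated mice, against 24789 and 21226 CPM in untreated mice, a log2 fold change of −0.38 ± 0.09 (edgeR adjusted p = 0.644). In clusters 5, 7 and 8 it measured 16118 and 14399 CPM in treated and 20587 and 18127 CPM in untreated mice. The adjusted p of Gm42418 fell below 0.05 without Maus2_2, at −0.26, and without Maus4_2, at −0.50.

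Prkca, protein kinase C alpha, measured 120 and 138 CPM in treated and 209 and 183 CPM in untreated mice (log2 fold change −0.60 ± 0.16). Frs2, an adaptor of growth factor receptors, measured 39.8 and 48.5 CPM in treated and 79.5 and 84.6 CPM in untreated mice (−0.90 ± 0.23). Hivep3, a zinc finger transcription factor, measured 6.64 and 9.92 CPM in treated and 38.9 and 21.5 CPM in untreated mice. The groups were apart for each, and leaving out a mouse moved Hivep3 between −2.23 and −1.37. Kidins220, a kinase D substrate, and 1190007I07Rik were lower in both treated mice as well, at −0.63 and −1.72.

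The treatment difference followed gene length as well. Over 6862 genes in cluster 3 the Spearman correlation of length and log2 fold change was −0.223, and in clusters 5, 7 and 8 it was −0.145 over 7371 genes. In 4 bins by length the median fold change in cluster 3 was 0.08, 0.05, −0.03 and −0.10, and 65.5% of the longest genes were lower in treated mice. Prkca spans 410542 bases, Hivep3 404262, Kidins220 88228 and Frs2 79108 bases, while Eif2b5 spans 10507, Rpp21 2425 and Tmem203 854 bases. Of the lower genes, 1190007I07Rik (3378 bases) and Gm42418 (1831 bases) are short. The part of length in the single treatment differences was not tested.

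**Figure D5:**
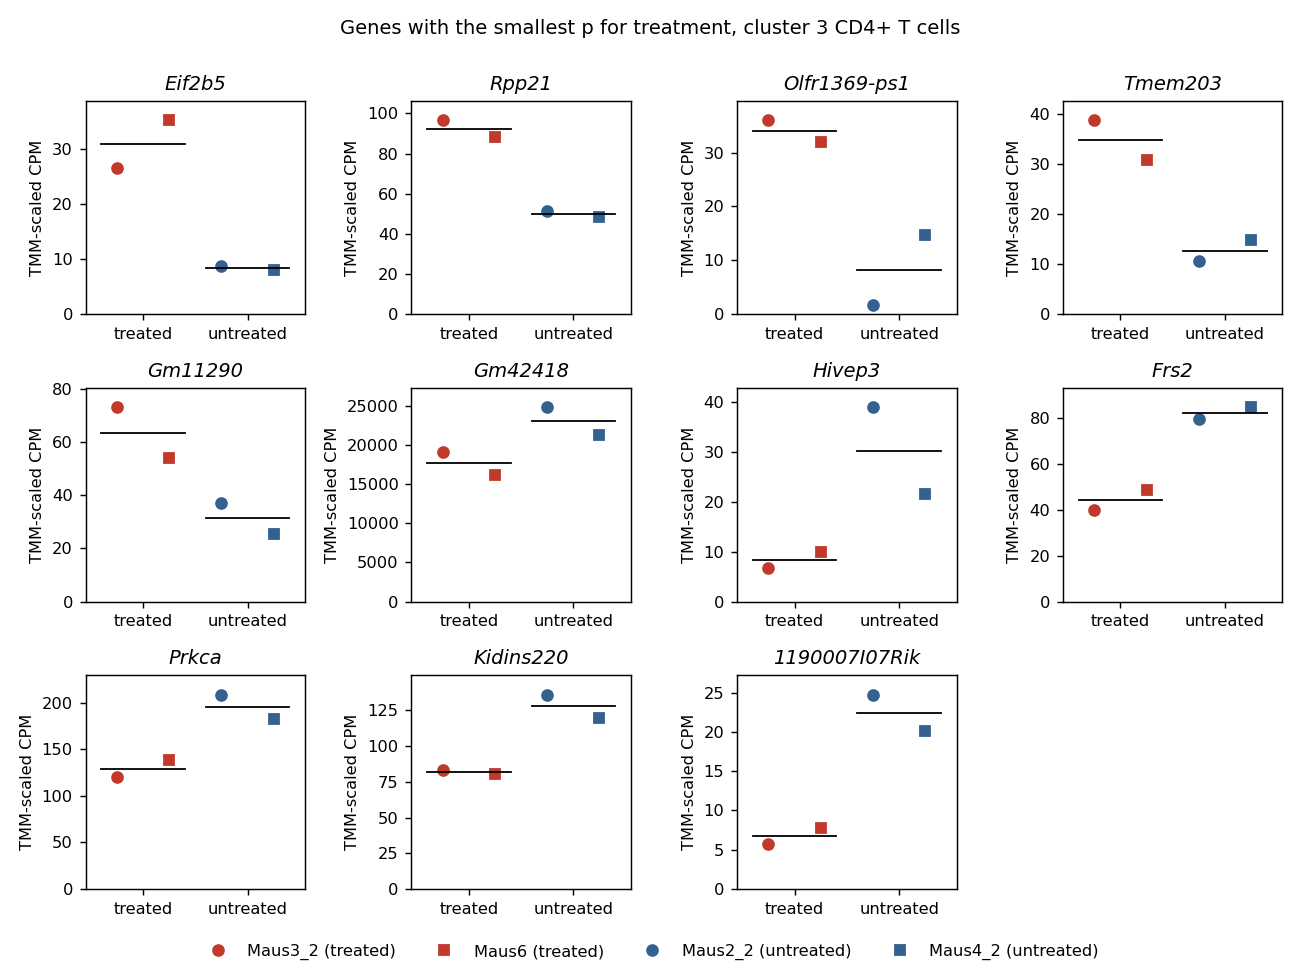
TMM-scaled CPM in cluster 3 CD4+ T cells for 11 genes with the smallest unadjusted p for treatment, 5 higher and 6 lower, with 1 point per mouse (red treated, blue untreated) and a bar at the group mean, on linear axes from 0. Treated and untreated mice do not overlap in any of these genes, and none of them passed the adjusted test.

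Among the pathway lists, MHC class I genes, which present peptides to CD8+ T cells, had 4 of 12 tested members at an unadjusted p under 0.05, all higher in treated mice, against 2.07% of all genes. Their median log2 fold change was 0.12, against 0.00 over all genes, and 0 passed the adjusted test. Psmb9, an immunoproteasome subunit, measured 125 and 126 CPM in treated and 91.9 and 84.6 CPM in untreated mice. H2-T23 measured 196 and 164 CPM in treated and 125 and 137 CPM in untreated mice. H2-D1 measured 1112 and 1120 CPM in treated and 953 and 952 CPM in untreated mice. These 3 genes, named for their small p, did not overlap between groups. They are short, at 5778, 3083 and 4770 bases. The bin of shortest genes had a median fold change of 0.08 in cluster 3. The part of length in the values of this list was not tested. Of the 12 members, 7 had both treated mice above both untreated and 1 below, against 16.2% and 17% of all genes.

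Of 14 immediate early genes, which respond within minutes to stimulation and handling, 3 were higher at an unadjusted p under 0.05 and 0 lower, with a median of 0.14, against 2.07% higher and 2.69% lower of all genes. Cd69, an early activation marker that also holds lymphocytes in tissue, measured 125 and 106 CPM in treated and 70.7 and 76.6 CPM in untreated mice (log2 fold change 0.65 ± 0.19, edgeR adjusted p = 0.909). Jund, an AP-1 subunit, measured 535 and 498 CPM in treated and 399 and 441 CPM in untreated mice. Klf2, which maintains quiescence and S1pr1 expression, measured 998 and 773 CPM in treated and 765 and 700 CPM in untreated mice. The groups were apart for all 3, narrowly for Klf2. Of the 14 genes, 6 had both treated mice above both untreated and 1 below, against 16.2% and 17% of all genes. In clusters 5, 7 and 8 the log2 fold changes were 0.39 for Cd69, 0.16 for Jund and 0.27 for Klf2.

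Of 18 homing and adhesion genes, 3 were lower at an unadjusted p under 0.05 and 0 higher, against 2.69% and 2.07% of all genes, and the median was 0.02. S1pr1, needed to leave lymph nodes, measured 459 and 388 CPM in treated and 507 and 506 CPM in untreated mice. Itga4, an integrin subunit, measured 235 and 219 CPM in treated and 304 and 286 CPM in untreated mice. Gpr18, a G protein-coupled receptor, measured 69.2 and 61.7 CPM in treated and 83.1 and 98.1 CPM in untreated mice. Each separated the groups, and none passed the adjusted test. Of the 18 genes, 3 had both treated mice above both untreated and 4 below, against 16.2% and 17% of all genes.

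Nfkbia, the NF-kB inhibitor, was the 1 of 13 glucocorticoid response genes at an unadjusted p under 0.05, at 0.34. Cd40lg, the ligand by which helper T cells activate B cells, differed by −0.58 and Tnfrsf18, a costimulatory receptor, by 0.65. In the interferon list of 23 tested genes, Psmb9 and Xaf1 (0.81) were higher and Ifit1 (−1.68) lower at an unadjusted p under 0.05, on 6 to 17 UMIs per mouse for Ifit1. Of 10 heat shock genes, Hsp90ab1 (log2 fold change 0.32) and Hspa8 (0.27) were higher at that level. Leaving out 1 mouse moved Hsp90ab1 between 0.17 and 0.46, Hspa8 between 0.12 and 0.43, Nfkbia between 0.15 and 0.53, Tnfrsf18 between 0.32 and 0.91, Cd40lg between −0.83 and −0.37 and Klf2 between 0.08 and 0.46. These counts stand against 2.07% of all genes higher and 2.69% lower. The oxidative stress list, of interest because NTP produces reactive species, had 0 of 17 members at an unadjusted p under 0.05 and a median of 0.05. None of these lists had a member past the adjusted threshold. Of 81 ribosomal protein genes, 0 were at an unadjusted p under 0.05, with a median of 0.06. Among the T cell lists, 0 of 16 receptor complex, 10 memory and effector, 4 helper subset and 14 cytokine receptor genes were at that level. The naive list had Klf2 higher and S1pr1 lower of 15, as had the FoxO and PI3K list of 18. The CD4 lineage list had Cd40lg of 11, the activation list Cd69, Nfkbia and Cd40lg of 12, and the regulatory list Tnfrsf18 of 4. None was at that level among 7 BCL2 family, 13 mitochondrially encoded and 5 proliferation genes.

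Summed markers of other cells, given in plain CPM, separated the groups in part. Summed CPM of 14 CD8 and cytotoxic markers was 75.1 and 85.0 in treated and 70.3 and 66.0 in untreated mice, with Gzmb, Klrk1, Ncr1, Klrb1c and Eomes at 0. The 11 of 12 myeloid markers in the table summed to 82.5 and 73.3 in treated and 46.3 and 70.0 CPM in untreated mice, with Csf1r and Siglech at 0. The 7 of 8 gamma delta and NKT markers in the table summed to 4.64 and 13.8 in treated and 3.43 and 2.69 CPM in untreated mice, with Tcrg-C1, Tcrg-C4, Sox13 and Klrb1c at 0. All 3 sums were higher in both treated mice than in both untreated mice, as were 16.2% of all genes tested. The gamma delta and NKT sums rest on few UMIs. Of the 3 lists, 3, 2 and 0 members had enough counts to be tested, and none was at an unadjusted p under 0.05.

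The 10 B cell markers summed to 204 and 169 CPM in treated and 146 and 176 CPM in untreated mice, with overlap and no member at 0. The 11 red cell and platelet markers summed to 26.9 and 2.13 CPM in treated and 65.2 and 4.04 CPM in untreated mice, also with overlap, and Hbb-bs, Hbb-bt, Gp9 and Gng11 were at 0. Ighm, the B cell IgM heavy chain, measured 182 and 160 CPM on the TMM scale in treated and 143 and 130 CPM in untreated mice (log2 fold change 0.33 ± 0.16). The part of these markers in the treatment differences was not tested. Without cells that had a UMI of a B cell or CD8 marker, 5 genes were called instead of 0, among them Rpp21 (1.01) and Gm42418.

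The study linked 5 genes in CD4+ T cells to the microRNAs miR-223-3p and miR-451a, which pair through bases 2 to 8, the seed, with sites in 3′ UTRs. The genes were picked on these same libraries, so their direction is not independent evidence, and mature microRNAs are not captured by these libraries. The mature sequences (RefSeq, GRCm38.p6, chrX:96242884-96242905 and chr11:78073186-78073207, both plus strand) are shown with the seed in capitals because the sites below are read against them.
mmu-miR-223-3p: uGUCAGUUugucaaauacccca
mmu-miR-451a: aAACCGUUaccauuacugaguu

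The match to the whole seed, AACTGAC for miR-223-3p and AACGGTT for miR-451a, was searched on the sense strand of the longest annotated 3′ UTR (GENCODE vM21, GRCm38). Phf20l1 had 3 matches for miR-223-3p and Mbnl1 had 1, while Tnik and Sptssa had 1 each for miR-451a and Mif had 0 for both. Matches stand in capitals in these windows, at chr15:66642476-66642498, chr15:66643661-66643683 and chr15:66644890-66644912 for Phf20l1, chr3:60626913-60626935 for Mbnl1, chr3:28671979-28672001 for Tnik (all plus strand) and chr12:54645454-54645476 for Sptssa (minus strand).
Phf20l1 site 1: aatcagaaAACTGACaatggaag
Phf20l1 site 2: attttttcAACTGACaaatgtgc
Phf20l1 site 3: tatggttcAACTGACtgttgaag
Mbnl1: agggagggAACTGACagatgaat
Tnik: acattctcAACGGTTggaaatga
Sptssa: ttttttaaAACGGTTtttattcc

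Among 3′ UTRs of similar length, the match for miR-223-3p was held by 28.0% near Phf20l1 and 19.5% near Mbnl1, against 8.18% of all 20979 genes. For miR-451a it was held by 8.83% near Tnik and 1.49% near Sptssa, against 1.74% of all. A match is a description of the letters and not evidence of a bound site.

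Phf20l1, a reader of methylated lysines, measured 212 and 218 CPM in treated and 262 and 281 CPM in untreated mice (log2 fold change −0.34 ± 0.13, edgeR adjusted p = 0.981). Mbnl1, a splicing regulator, measured 749 and 755 CPM in treated and 857 and 864 CPM in untreated mice (−0.19 ± 0.11). Tnik, a kinase of Wnt and JNK signalling, measured 215 and 185 CPM in treated and 216 and 247 CPM in untreated mice (−0.21 ± 0.14). These 3 were lower in both treated mice than in both untreated mice, as were 17% of all genes tested. For Tnik the margin was narrow, between Maus3_2 and Maus2_2. Tnik ran from −0.32 to −0.10 when a mouse was left out. Phf20l1, Mbnl1 and Tnik are long genes, of 70417, 156921 and 412645 bases. The part of the length relation in their values was not tested.

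Sptssa, a subunit of serine palmitoyltransferase, measured 72.1 and 59.5 CPM in treated and 65.4 and 49.7 CPM in untreated mice (0.22 ± 0.24). Mif, a cytokine, measured 214 and 234 CPM in treated and 196 and 236 CPM in untreated mice (0.04 ± 0.14). Both overlapped between groups, and Sptssa ran from 0.01 to 0.42 when a mouse was left out. In clusters 5, 7 and 8 the log2 fold changes were −0.27 for Phf20l1, −0.09 for Mbnl1, −0.39 for Tnik, −0.26 for Sptssa and −0.13 for Mif, and no difference between clusters passed the adjusted interaction test.

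Whether treatment acted otherwise in cluster 3 than in clusters 5, 7 and 8 was tested as an interaction with the mouse as block, over 7820 genes. Only Fbxo47, an F-box protein, passed (0.0128%), and 359 genes had an unadjusted p under 0.05. Fbxo47 measured 30.3 and 16.5 CPM in treated and 5.30 and 10.7 CPM in untreated mice in cluster 3, and 6.83 and 6.52 CPM in treated and 30.6 and 17.6 CPM in untreated mice in clusters 5, 7 and 8. The direction in cluster 3 was opposite to that in the other clusters, on 3 to 32 UMIs per mouse in cluster 3.

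The interaction of Fbxo47 was 3.32 ± 0.69 on the log2 scale (edgeR adjusted p = 0.0232). The call was lost without Maus3_2 (2.82) and without Maus2_2 (2.52), without the mouse block, with DESeq2, with limma-voom and against cluster 5 alone. Eif2b5 (2.30), Kcnq5 (2.58), Gtf2ird2 (2.53) and Deaf1 (2.09) had the next smallest p on the higher side, and Frs2, Prkca, Mapk8, Dgcr2 and Numb on the lower side, between −1.54 and −0.67, none past the adjusted threshold. Cluster 8, where Kcnq5 averaged 255 CPM, held 9.11 and 4.59% of CD4+ T cells in treated mice, against 14.6 and 9.09% in untreated mice, and its part in the interaction was not tested.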

How the data were processed

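The authors deposited whole-number UMI counts per gene and cell and a cell table with clusters, annotations and the percent of mitochondrial counts. Per the labels and the paper, 3′ libraries were aligned to mm10 with Cell Ranger 7.1.0, and cells were filtered and clustered with Seurat 4.3.0. SoupX and DoubletFinder were applied, but the sources used here do not say whether the deposited counts include the SoupX step or intronic reads. No doublet caller was run again, and 0 value columns were left unused.

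Counts were summed per mouse and cluster. edgeR 4.0.16 (R 4.3.3, TMM, filter on low counts, quasi-likelihood, Benjamini-Hochberg at 0.05) tested treatment, with limma 3.58.1, DESeq2 1.42.0, no filter, equal cells and leaving out each mouse as alternatives. The study's own test took cells as replicates and was not used. Replicate numbers follow accession order and pair no mice. Scripts were tested on simulated data.

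The cells, the 26 gene lists and the tests were chosen with earlier results of these data known. Genes named are the 6 smallest p-values per direction, list members at an unadjusted p under 0.05 among the 3 smallest of each list, the 5 study targets, the 5 smallest interaction p-values per direction, and the 15 leading genes per direction and markers between clusters, of which the main ones are given, and a few that the rule names are not reported here. The 3 T cell receptor segments tested were counted and not named, with 0 at an unadjusted p under 0.05. Treatment levels of single genes are TMM-scaled CPM, except those of Gm10076. Summed markers of other cells and cluster levels are plain CPM.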

Additional observations from a re-analysis of the deposited data

Results flagged for a closer look

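The treatment effect on Fbxo47 differed between cluster 3 and clusters 5, 7 and 8 by 3.32 on the log2 scale (edgeR interaction with the mouse as block, adjusted p = 0.0232). Its counts in cluster 3 were 32 and 15 UMIs in treated and 3 and 8 UMIs in untreated mice.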

How the results depend on the processing

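For treatment in cluster 3, 0 genes passed with edgeR, DESeq2, limma-voom, RLE scaling, equal cells per mouse, a shared spread, and without Gm42418 and ribosomal genes (added after seeing the data). 7 passed with no filter, 5 without cells carrying a B cell or CD8 marker UMI, and 0 to 11 when a mouse was left out. In clusters 5, 7 and 8, 4 passed with no filter and 0 to 8 without a mouse, against 0. The interaction gave 1 gene, and 0 with DESeq2, limma-voom, cluster 5 alone, no mouse block, and 0 to 1 without a mouse. No paired analysis was possible for the treatment fits because the replicate numbers follow accession order. Of 562 refits of the named genes, 546 kept direction and side of the threshold, 8 passed it newly, 6 lost it and 2 turned direction, both of Mif (−0.01 without Maus6 and −0.070 without Maus2_2, up to 0.18). Only the Fbxo47 interaction had passed in the main fits, and every refit that lost the threshold was of it. For all other named results, again not passing counted as the same side. Leaving out a mouse moved the cluster 3 share of CD4+ T cells between 3.93 and 15.7 points and that of all cells between −0.53 and 1.47 points. Among clusters 3 and 5 alone the share difference was 9.91 points, and among CD4+ and CD8+ T cells 7.09 points. Between clusters, genes lower by 1 log2 unit numbered 11 to 19 without a mouse. The length correlation was −0.590 thinned, −0.634 with totals without ribosomal genes and −0.655 to −0.635 without a mouse. Those totals gave 978 higher genes, a median of −0.11 and a Cd4 difference of 0.18, which was −0.02 with all genes and between −0.089 and 0.030 without a mouse (0.01 without Maus3_2). The mean in place of the median gave a ribosomal gap of 10.2 points to cluster 5. The cause of these changes was not tested. Depth limits the low genes, such as Fbxo47 with 3 to 32 UMIs per mouse in cluster 3.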
